A study of Mus musculus with 6 samples.

Results

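Wdfy1, Rbm45, Tmem87a, A2m and Zmynd8 are 5 genes, of 41214 in the table and 10952 tested, that were chosen because both het libraries lay above both wt libraries and because none is a known Notch target. That ordering was met by 2105 genes, 19.2% of those tested, so the 5 are a selection from it and their rise in het is a description, with no test. The samples are endothelial cells of mouse embryonic hearts, sorted as CD31+GFP+ cells at E14.5, and tamoxifen had been given at E13.5 (days of embryonic development). All groups carried Pdgfb-iCreERT2-IRES-EGFP, which makes a drug-inducible Cre and a green marker in endothelial cells. The wt group (2 libraries, replicates 4 and 5) came from carriers of this transgene crossed to wildtype females. The het group (replicates 2 and 3) had 1 parent from the Dll4flox/flox Pdgfb-iCre line and a wildtype mother, and the KO group (replicates 1 and 2) had a Dll4flox/flox parent on both sides. The labels call het Dll4+/- and KO Dll4-/-. The wt, het and KO embryos thus carried 0, 1 and 2 floxed Dll4 alleles, and in the same order none, 1 or both parents were from floxed stock.

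Dll4 is a ligand of arterial and sprouting endothelial cells. It activates Notch receptors on neighbouring cells, and the cleaved receptor then works with the DNA-binding protein Rbpj, whose core site reads TGGGAA. The 5 genes are known mainly for roles outside this pathway. Rbm45 encodes an RNA-binding protein studied mainly in the nervous system, Tmem87a a Golgi membrane protein with a GOLD domain, A2m the secreted protease inhibitor alpha-2-macroglobulin, Wdfy1 an endosomal protein that binds a phosphoinositide and takes part in Toll-like receptor signalling, and Zmynd8 a chromatin reader with a bromodomain. Genes near a floxed locus can also differ between mouse strains, because chromosome segments of the strain in which an allele was made travel with it through the crosses.

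The libraries held between 1537908 and 6501798 counts, with the KO libraries the deepest. Lars2 took between 16.3% and 17.1% of counts in the wt and het libraries but 0.0572% and 0.0611% in KO, and the scaling factors (TMM, which centres the bulk of genes) were 1.19 in both KO libraries against 0.909 to 0.929 in the other 4. Directions in KO are therefore relative to the bulk of genes, and this shift in makeup cannot be told apart from the genotype. Levels are given as CPM, the usual unit of counts relative to library size, after this scaling. Dll4 followed the labels, with 196 and 183 CPM (wt), 81.2 and 85.9 (het) and 19.4 and 13.7 (KO). The 12 endothelial markers were all tested and summed to 7893 to 8154 CPM in wt, 7449 to 7844 in het and 6439 to 6635 in KO, so the labelled cell type was present and its sum was lowest in KO. In KO against wt 5 of the 12 were called lower and 2 higher. Among the lower were Cdh5, the endothelial cadherin gene, at a log2 difference of -2.29 and the transcription factor gene Erg at -1.26. The higher ones were the receptor genes Tek (0.77) and Kdr (0.44). Pecam1, Tie1, Esam, Egfl7 and Cldn5 were not called, with differences from -0.26 to 0.14. Cdh5 by itself averaged 1955 (wt), 1859 (het) and 401 CPM (KO). Its fall from wt to KO was about as large as that of the whole sum, so the lower sum does not describe the other markers together. In bulk RNA, fewer cells of a type and less RNA per cell cannot be told apart.

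Rbm45 and Tmem87a are the genes of the 5 that were also called higher in KO against het, and both are on chromosome 2 with Dll4. The 250 bases before the RefSeq start of each are shown for that reason (GRCm38.p6), at chr2:76369734-76369983 on the plus strand for Rbm45 and at chr2:120404117-120404366 on the minus strand for Tmem87a. Capitals mark TGGGAA and CCGGAAG, which were searched on both strands. CCGGAAG, a site of ETS factors, was added after the sequences had been read.

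Rbm45: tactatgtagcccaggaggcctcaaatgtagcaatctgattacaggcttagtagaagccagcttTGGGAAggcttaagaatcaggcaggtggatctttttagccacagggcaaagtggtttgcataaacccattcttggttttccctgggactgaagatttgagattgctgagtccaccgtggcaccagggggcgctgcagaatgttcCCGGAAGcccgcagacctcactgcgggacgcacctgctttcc
Tmem87a: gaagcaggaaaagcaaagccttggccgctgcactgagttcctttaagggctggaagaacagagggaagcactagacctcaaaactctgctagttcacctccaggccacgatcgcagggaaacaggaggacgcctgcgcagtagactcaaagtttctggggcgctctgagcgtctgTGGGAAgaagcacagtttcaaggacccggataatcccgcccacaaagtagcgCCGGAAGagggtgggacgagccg

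Each window held 1 TGGGAA, starting 186 bases before the start of Rbm45 and 75 bases before that of Tmem87a. Such a match was present in 21.6% of 32851 RefSeq windows of the same length. The longer GTGGGAA, which contains the TGGGAA of Tmem87a, was in that window and not in the Rbm45 window, and 5.42% of all windows held it. Each window also held 1 CCGGAAG, at 42 and 23 bases before the start, which 6.91% of all windows did. Of 5 RefSeq windows for Zmynd8, 1 held TGGGAA and none held CCGGAAG. The E-box CACGTG was also searched and was in neither window, against 6.02% of all windows. These matches are descriptions of the letters and show no binding.

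The data did not bear out a stepwise rise for all 5 genes. In Rbm45, Tmem87a and A2m both het libraries lay above both wt libraries and both KO libraries above both het libraries, an ordering that 545 of the tested genes showed (4.98%). KO lay above wt without overlap in 4 of the 5, as in 33.2% of tested genes, and above het in 3, as in 31.4%. Wdfy1 overlapped between het and KO. Zmynd8 was high in het alone and within its wt range in KO. Among all 2105 genes that lay above wt in both het libraries, 25.9% lay higher still in KO, 28.3% overlapped het and 45.8% lay below het.

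**Figure D1:**
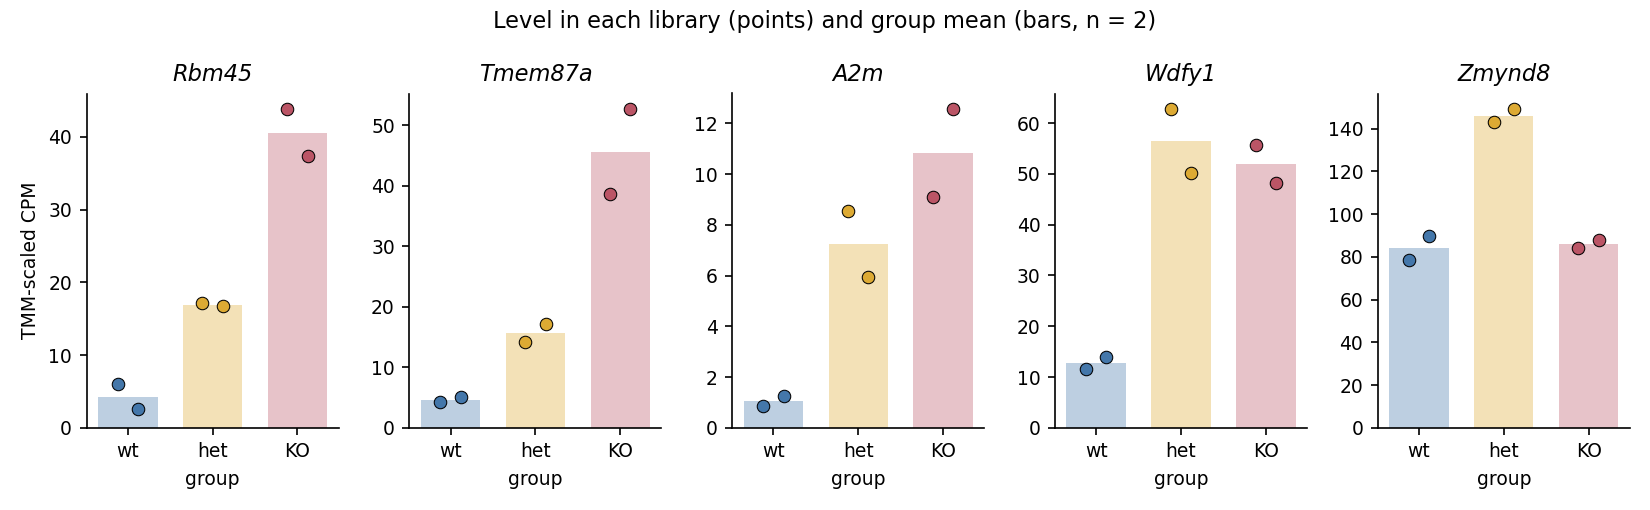
TMM-scaled CPM (vertical axes from 0, 1 scale per gene) of the 5 genes in the wt, het and KO groups; points are the 2 libraries and bars their mean. Rbm45, Tmem87a and A2m climb over the 3 groups, Wdfy1 is level between het and KO, and Zmynd8 is high in het only.

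At an adjusted p under 0.05 (edgeR's quasi-likelihood test, Benjamini-Hochberg over 10952 genes), 4 of the 5 genes were called higher in KO against wt, where 14.7% of all tested genes were (1610 genes, with 1899 or 17.3% lower), and 2 were called higher in KO against het, where 13.9% were. Zmynd8 alone was called lower in KO against het, as were 17.2% of tested genes. With library sizes alone as the scale, the KO against wt split over all genes was 3878 higher and 1034 lower, the median log2 difference of all genes went from -0.02 to 0.35, and all 5 genes were called higher. The KO libraries had no part in the ordering that chose the genes. The wt and het libraries did, and the genes were proposed with the KO values known, so the adjusted p-values below describe differences against the replicate spread and are no independent evidence.

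Rbm45 (ENSMUSG00000042369; chromosome 2, 76369984 to 76383768) stood at 5.99 and 2.53 CPM in the wt libraries, at 17.1 and 16.8 in those of het and at 43.8 and 37.3 in those of KO. The 3 groups did not overlap, and the lowest KO library was 2.18-fold above the highest het library. The wt values rest on 14 and 4 counts, with exact intervals of 3.28 to 10.1 and 0.690 to 6.48 CPM. The means were 4.26 ± 2.45, 16.9 ± 0.241 and 40.5 ± 4.56 CPM (SD, n = 2 each). KO exceeded wt by 3.15 ± 0.32 (SE) and het by 1.26 ± 0.25 on the log2 scale, with edgeR adjusted p = 2.00e-07 and 5.96e-04. Het exceeded wt by 1.89 on that scale. Without wt replicate 4, the wt library with more Rbm45, these differences from wt were 4.03 for KO and 2.72 for het.

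Tmem87a (ENSMUSG00000033808; chromosome 2, 120355312 to 120404113) was measured at 4.28 and 5.06 CPM (wt), 14.2 and 17.1 (het) and 38.6 and 52.6 (KO). Again no library of a group reached the next group. The means were 4.67 ± 0.553, 15.7 ± 2.02 and 45.6 ± 9.91 CPM (SD, n = 2 each). Het was 3.35-fold above wt and KO 9.76-fold. On the log2 scale KO exceeded wt by 3.29 ± 0.31 (SE) and het by 1.51 ± 0.25, with edgeR adjusted p = 7.07e-08 and 8.04e-05. Both calls, and both calls of Rbm45, were kept in each of 12 other settings.

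A2m (ENSMUSG00000030111; chromosome 6, 121635376 to 121679227) was the scarcest of the 5 per kb of exon, at 0.151 CPM per kb in wt, 1.03 in het and 1.54 in KO. It had 2 counts in each wt library, 12 and 17 in het and 70 and 74 in KO, which gave 0.856 and 1.27, 8.55 and 5.93, and 9.09 and 12.6 CPM. The lowest KO library was 1.06-fold above the highest het library, so the 2 groups nearly touched. The log2 difference between KO and wt was 3.35 ± 0.60 (SE), with edgeR adjusted p = 2.08e-04. From the summed counts the KO to wt ratio was 10.4, with an exact interval of 3.96 to 38.6. The het to wt ratio, on which A2m was chosen, was 6.65. KO against het did not pass (log2 difference 0.62 ± 0.43, adjusted p = 0.294), and its ratio of 1.56 had an interval of 1.04 to 2.41. That step did not pass in any of the 12 other settings, with adjusted p between 0.0587 and 0.719.

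Wdfy1 (ENSMUSG00000073643; chromosome 1, 79702262 to 79776143) was higher in het and KO than in wt, and overlapped between het and KO. Its level was 11.6 and 13.9 CPM (wt), 62.7 and 50.3 (het) and 55.7 and 48.2 (KO). The het and KO libraries overlapped, and the lower het library was 3.61-fold above the higher wt library. The means were 12.7 ± 1.67, 56.5 ± 8.78 and 51.9 ± 5.33 CPM (SD, n = 2 each). KO exceeded wt by 2.05 ± 0.23 (SE) on the log2 scale (edgeR adjusted p = 6.86e-07). KO against het gave -0.09 ± 0.18 (adjusted p = 0.743), and the ratio of counts, 0.965, had an exact interval of 0.831 to 1.12.

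Zmynd8 (ENSMUSG00000039671; chromosome 2, 165784152 to 165899016) had the highest level of the 5 per kb of exon in wt (7.62 CPM per kb), and its pattern was the only one of the 5 to turn back. It was measured at 78.3 and 89.9 CPM (wt), 143 and 149 (het) and 84.0 and 88.0 (KO). Both KO libraries lay within the range of the wt libraries. Its rise in het was the smallest of the 5, 1.74-fold, and the lower het library was 1.59-fold above the higher wt library. KO against wt gave a log2 difference of 0.04 ± 0.14 (SE; adjusted p = 0.855), and the ratio of counts, 1.03, had an exact interval of 0.913 to 1.17. The log2 difference of KO from het was -0.77 ± 0.13, with edgeR adjusted p = 1.04e-04. Its call in KO against wt with library sizes alone had a log2 difference of 0.40 (adjusted p = 0.0201), close to the 0.35 of the median gene. Its expected counts were not whole in any of the 6 libraries, so part of its reads were shared with other genes by RSEM. Those of Wdfy1, Rbm45 and A2m were whole in all 6.

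Sums of cardiomyocyte and of mural markers were also highest in het. The 14 cardiomyocyte genes summed to 113 to 126 CPM in wt, 193 to 245 in het and 52.2 to 60.6 in KO, and 6 of 9 tested members lay above both wt libraries in both het libraries, as did 19.2% of all tested genes. The 12 mural and fibroblast genes summed to 82.2 to 141, 198 to 271 and 58.2 to 113 CPM, with 4 of 8 tested members so ordered. The 11 macrophage and leukocyte genes summed to 55.0 to 126, 109 to 335 and 34.7 to 71.1 CPM, with 3 of 7, and the wt and het ranges of this list overlapped. No gene of these 3 lists was at 0 in all libraries. The cardiomyocyte sum was lowest in KO, where Rbm45, Tmem87a and A2m were highest, and the part of these cells in the het level of Zmynd8 was not tested. The endocardial list (6 genes) reached 493 CPM in het replicate 2 and lay between 226 and 334 CPM in the other libraries. The epicardial list (7 genes) spanned 74.3 to 122 CPM, most of it Wt1, and the erythroid list (9 genes) spanned 118 to 416 CPM.

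**Figure D2:**
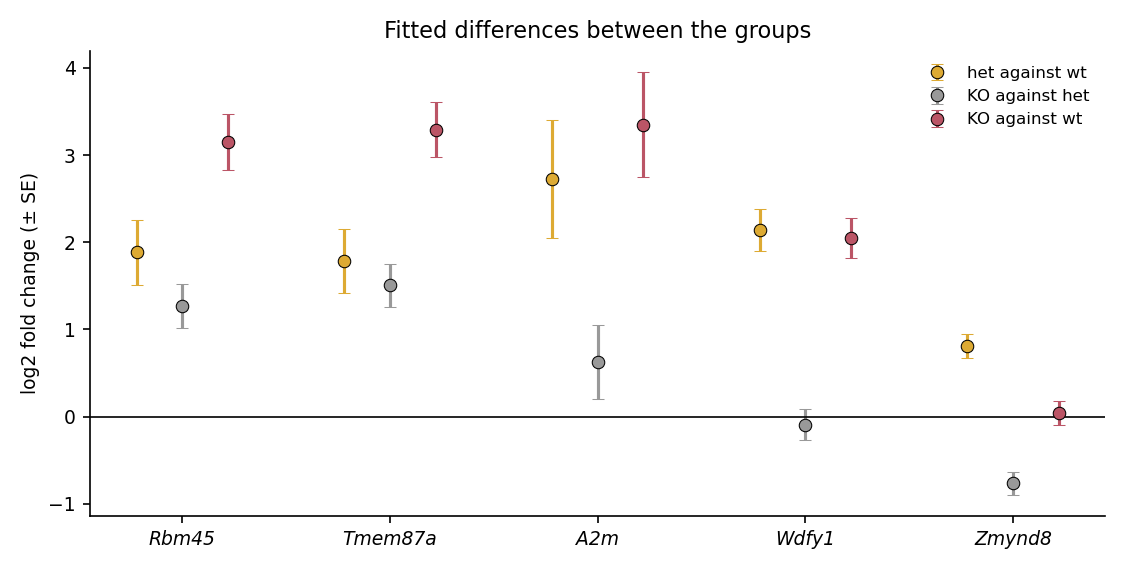
Fitted log2 fold change (points, with SE bars) of each gene for het against wt, KO against het and KO against wt. The KO against het values of Rbm45 and Tmem87a, 1.26 and 1.51, sit well above 0, that of Wdfy1 is at -0.09, and that of Zmynd8 is at -0.77; the het against wt values were used to choose the genes.

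The place of het between wt and KO was expressed as the difference of het from wt in percent of that of KO from wt. In CPM, it was 34.9% for Rbm45 (28.5% to 41.9% over the 8 combinations of 1 library per group) and 26.9% for Tmem87a (19.3% to 37.4%). The gain in CPM from the single to the double floxed state was thus larger than the gain from none to 1 in every combination of libraries. On the log2 scale the same genes stood at 61.2% (51.7% to 71.0%) and 53.1% (44.2% to 63.0%). A2m stood at 63.3% in CPM, with a range of 41.3% to 93.4% that does not place it on either side of the middle. On the log2 scale A2m stood at 82.7% (67.3% to 97.4%), above the middle, with wt values that rest on 2 counts per library. Wdfy1 stood at 112% in CPM, with a range of 86.9% to 142%. With library sizes alone, the values in CPM were 26.0% for Rbm45, 20.1% for Tmem87a, 47.5% for A2m and 79.8% for Wdfy1. With TMM scaling Dll4 itself had lost 61.3% of its full CPM difference in het (57.4% to 65.0%). On the log2 scale it had lost 33.6% (29.2% to 38.1%). Dll4 thus stood above Rbm45 and Tmem87a in CPM and below them on the log2 scale. No place can be given for Zmynd8, since its KO and wt libraries overlapped.

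Position was not among the stated reasons for choosing the genes. They were chosen with earlier results of these data known, and whether position played a part in the choice was not tested. Their share on chromosome 2 is therefore a description of the selection. Rbm45, Tmem87a and Zmynd8, 3 of the 5, lie on chromosome 2, which holds 8.14% of the tested genes. Their starts lie 43.0, 1.08 and 46.6 Mb from that of Dll4. For comparison, 396 tested genes with a mean of at least 5 CPM lay above wt in both het libraries by at least 1.5-fold, a limit set after the values were seen. Of these 45 were on chromosome 2, 5.05% of its tested genes, against 3.62% over all chromosomes and 5.18% on chromosome 5. In 41 of the 396 genes KO lay above het as well. These were 6 of 891 tested genes on chromosome 2, 5 of 911 on chromosome 11 and 5 of 421 on chromosome 15, with the rest elsewhere. The 5 genes are themselves among the 396.

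The nearest tested neighbours of Wdfy1, Rbm45, Tmem87a and A2m differed less between KO and wt than those genes did. The start of Wdfy1 lies 0.125 kb from that of Mrpl44, a mitochondrial ribosomal protein gene on the other strand. Mean levels of Mrpl44 were 24.3 ± 5.66 CPM for wt, 32.4 ± 1.46 for het and 35.7 ± 3.90 for KO (SD, n = 2 each), with a log2 difference of 0.53 between KO and wt (edgeR adjusted p = 0.0724). Tmem87a starts 0.217 kb from Ganc, a glucosidase gene that also runs the other way. Ganc stood at 7.01 ± 0.829, 8.98 ± 1.62 and 7.04 ± 1.80 CPM, a log2 difference of 0.03 between KO and wt (edgeR adjusted p = 0.969). These pairs overlap by 126 and 218 bases, within which reads cannot be given to a strand. Serpine2, the nearest tested gene on the other side of Wdfy1, had 23.4 ± 8.06, 28.5 ± 1.09 and 40.8 ± 4.95 CPM in wt, het and KO and passed in KO against wt (log2 difference 0.76, adjusted p = 0.0148), a call lost with DESeq2 and without wt replicate 5 or KO replicate 2. Around Rbm45 the nearest tested genes Ttc30a1 and Prkra, around A2m Pex26 and M6pr, and on 1 side of Zmynd8 Ncoa3 and of Tmem87a Zfp106, had log2 differences from -0.60 to 0.20 between KO and wt, and none passed. With library sizes alone, Pex26 went from -0.27 to 0.09, and Mrpl44 (0.89), M6pr (0.56) and Zfp106 (0.47) were called higher, where the median gene was at 0.35. Slc2a10, the glucose transporter gene on the other side of Zmynd8, had 1.42 and 8.38 CPM in het and 11.4 and 14.6 in KO, and its call in KO against wt (log2 difference 1.35, adjusted p = 0.0399) was lost in 6 of 12 settings.

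Within 1 Mb of the 5 starts lay 69 other tested genes. Of these 23 were called in KO against wt (33.3%), 9 higher and 14 lower, near the 32.0% of all tested genes, and 15 (20.5%) when either wt library was left out, where 17.5% (without replicate 4) and 20.9% (without replicate 5) of all genes were. At least 2-fold changes were called in 9 (13.0%, against 11.2% of all). Those that fell included Hnrnpa3 near Rbm45, Phc1 and Mical3 near A2m, Cd40 near Zmynd8 and Ino80 and Rtf1 near Tmem87a, by log2 differences from -1.93 to -1.03, with the Mical3 call lost in 5 settings. Those that rose were Slc2a10, and Oip5 (log2 difference 1.02) and Tyro3 near Tmem87a. In het against wt edgeR called none of the 69, where it called 0.173% of all tested genes. DESeq2 and limma-voom called none either, and 5 (7.25%) had an unadjusted p under 0.05 by edgeR, as did 8.15% of all tested genes.

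**Figure D3:**
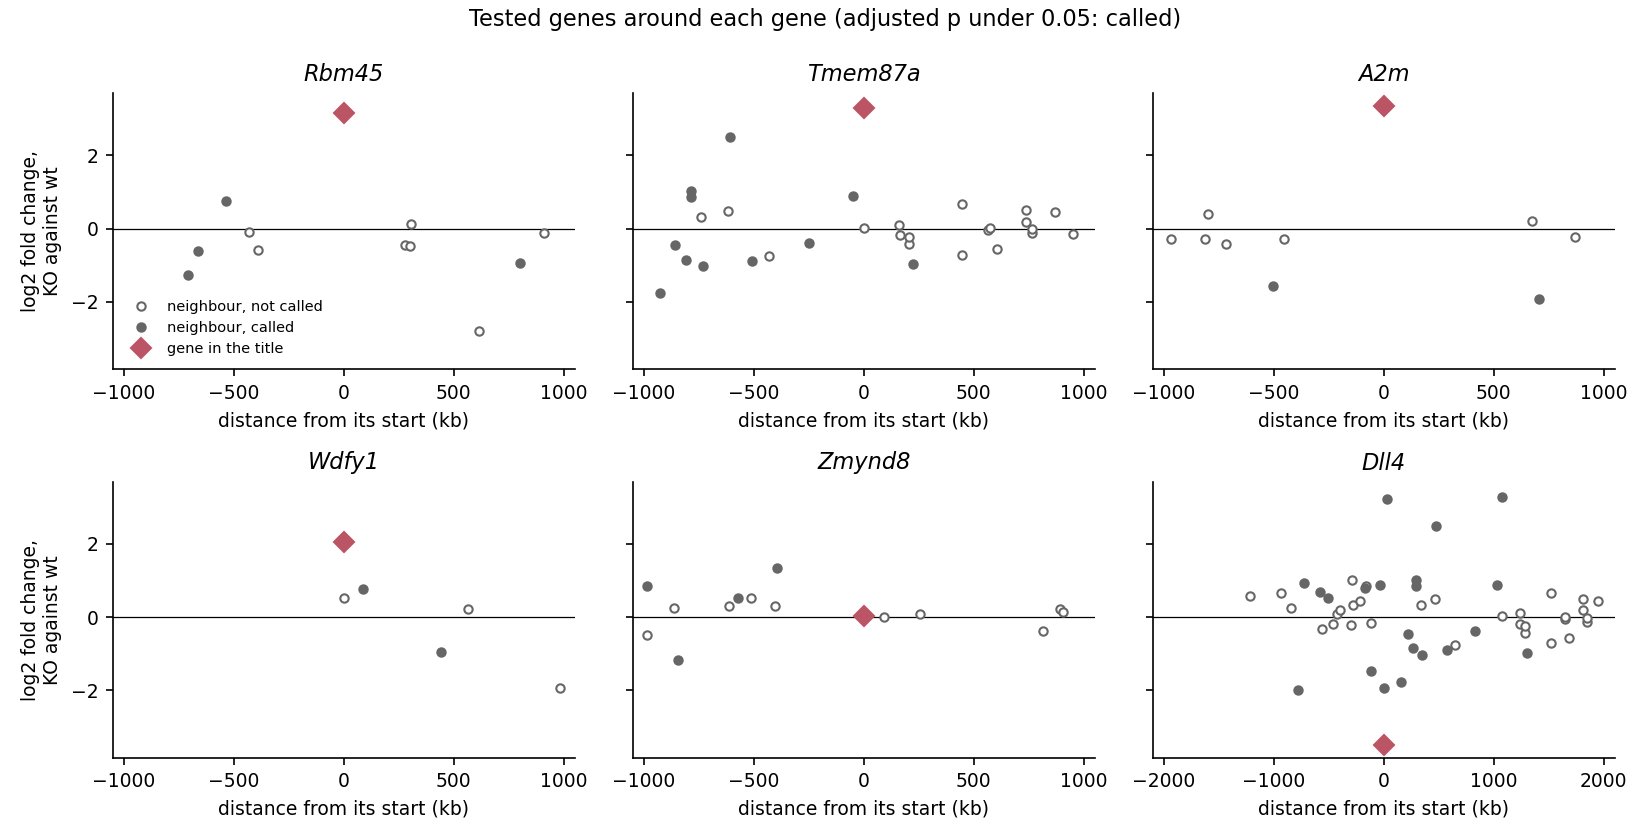
Log2 fold change of KO against wt (vertical axis) for each tested gene around the gene named above the panel, by distance between starts in kb; diamonds are the named gene, filled circles neighbours called at an adjusted p under 0.05 and open circles the rest. Wdfy1, Rbm45, Tmem87a and A2m stand above every tested gene within 1 Mb of them, and Zmynd8 lies at 0.04.

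Around Dll4 genes were called in both directions. Within 2 Mb of its start lay 52 tested genes, Tmem87a among them. In KO against wt 11 of these were called higher and 10 lower (21 called, 40.4%, against 32.0% of all tested genes). Of the tested genes within 1 Mb, 18 of 33 were called (54.5%). Without wt replicate 4 the share within 2 Mb was 18.5% (10 genes), beside 17.5% of all genes tested in that setting. Fully ordered rises, wt below het below KO, were seen in 6 of the 52 (11.5%, against 4.98%): Bub1b, Knstrn, Vps18, Oip5, Tyro3 and Tmem87a. Tmem87a is among the 6 although it was chosen for lying above wt in het. The reverse order, wt above het above KO without overlap, was seen there too, as in Bmf, Ehd4, Haus2 and Ccndbp1. No share over all tested genes is given for these falls, so no excess of rises over falls can be read from the 6. Bub1b, Knstrn and Oip5 have known roles in mitosis. Tyro3, a receptor tyrosine kinase gene 472 kb from Dll4, had 3.42 and 1.27 (wt), 7.12 and 7.33 (het) and 14.7 and 14.1 CPM (KO), with a log2 difference of 2.50 between KO and wt (edgeR adjusted p = 2.82e-04). That difference was 3.51 without wt replicate 4. Chac1, which degrades glutathione and starts 25.4 kb from Dll4, stood at 0.428 and 1.90, 8.55 and 8.38, and 5.45 and 14.8 CPM in wt, het and KO. Its KO against wt call (log2 difference 3.23, adjusted p = 0.00192) was lost in 3 settings: limma-voom, KO replicate 2 left out (difference 2.34) and wt replicate 4 left out (2.41). Without wt replicate 5 it was 4.45. Others nearby fell, among them the remodeller gene Ino80, the apoptosis gene Bmf and Dnajc17, by log2 differences of -1.76, -1.99 and -1.47 (adjusted p = 8.22e-05, 2.34e-04 and 0.0236). The Dnajc17 call was lost in 6 settings. In het against wt none of these genes passed.

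The design gives Dll4 dose and strain background the same steps. Each group has 1 number of floxed alleles, the same number of lost Dll4 copies after recombination, and the same number of parents from floxed stock. The expected counts carry no allele information, and no group has a floxed allele without Cre. A strain variant carried with the floxed line and an effect of Dll4 dose therefore cannot be told apart for any of the 5 genes. The 5 genes did not share 1 pattern over these steps: Zmynd8 in KO lay within its wt range, and Wdfy1 in het overlapped KO.

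None of the close relatives of the 5 was called higher in KO against wt. Tmem87b, the paralog of Tmem87a, had means of 24.5, 17.9 and 19.0 CPM (log2 difference of KO from wt -0.38, edgeR adjusted p = 0.284). Wdfy3, a large relative of Wdfy1, had a log2 difference of -0.23 (adjusted p = 0.289), and 0.14 with library sizes alone. Wdfy2, another relative of Wdfy1, had 5.57 and 3.16 CPM (wt), 2.14 and 3.57 (het) and 5.97 and 7.12 (KO). Its KO libraries lay above the other 4, with log2 differences of 0.53 from wt and 1.13 from het that did not pass (edgeR adjusted p = 0.473 and 0.131). Cd109, a membrane-bound relative of A2m, was called lower in KO against wt (-0.35, adjusted p = 0.0223), a call lost in 5 of 12 settings, with 0.0079 under library sizes alone. The A2m relatives Pzp and Mug2 had 0 counts in all libraries and Mug1 had 3 counts in KO replicate 1 only. Of 5 relatives tested, 0 were called higher and 1, Cd109, lower, where 14.7% and 17.3% of all tested genes were.

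Partners of the 5 genes were called in both directions in KO against wt, as were all tested genes (14.7% higher and 17.3% lower). On the A2m list 2 of 4 tested genes rose and 1 fell: the chaperone gene Hspa5 (log2 difference 0.64, edgeR adjusted p = 4.63e-05) and Lrpap1, a chaperone of the A2m receptor (0.47, adjusted p = 0.0266, lost in 4 of 12 settings), against Cd109. The receptor gene Lrp1 itself had 24.2 and 7.33 CPM in het against means of 2.97 ± 1.17 in wt and 1.31 ± 0.171 in KO, and did not pass between KO and wt (adjusted p = 0.301). On the Wdfy1 list of Toll-like receptor signalling 2 of 12 rose, the kinase genes Tbk1 (0.84) and Ripk1 (0.76), and 2 fell. Those were Irf7, at -2.50, and Cd14, a myeloid receptor, at -2.37, and each lost its call in 8 of 11 settings. Irf7 was at -0.65 without wt replicate 5. On the Rbm45 list of RNA-binding proteins 2 of 12 rose and 3 fell, with Ewsr1 at 0.84 and Tial1 at -1.76. On the Tmem87a list 1 of 14 rose and 3 fell, all of them p24 cargo receptors of the early secretory pathway, with Tmed2 at 0.60, Tmed5 at -0.93 and Tmed10 at -0.51. None of the 6 tested genes of that list outside the p24 family passed. On the Zmynd8 list 6 of 20 rose and 5 fell. The NuRD subunit genes split, with Mta2 at 1.22 and Mta1 and Chd4 at -1.87 and -1.49. Under library sizes alone the splits were 3 higher and 0 lower for Wdfy1, 6 and 3 for Rbm45, 4 and 1 for Tmem87a, 2 and 0 for A2m and 8 and 4 for Zmynd8. Median log2 differences of the 5 lists lay between -0.10 and 0.10, beside -0.02 for all tested genes.

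Profiles over the 6 libraries were compared by the root mean square difference of log2 CPM after subtraction of the wt mean, as a description of libraries that the 5 genes were chosen on. Rbm45 was most like Tmem87a (0.47) and Tyro3 (0.48). Tmem87a was most like A2m (0.46) and Rbm45 (0.47), and A2m most like Chac1 (0.45) and Tmem87a (0.46). Of the genes in these pairs that are not among the 5, Tyro3 and Chac1, both lie within 2 Mb of Dll4, as do 52 of 10952 tested genes. Both are low in wt, with means of 2.35 and 1.16 CPM, and a link of the likeness to position was not tested. Wdfy1 was most like the low-count genes Shisa8 (0.31) and Fgfr3 (0.37), on chromosomes 15 and 5. Zmynd8 was most like Mfsd12 (0.12) and Fam122a (0.13), on chromosomes 10 and 19, and Fam122a had means of 13.1, 21.5 and 13.3 CPM over wt, het and KO. With a smaller prior count of 0.5 the names were kept except for Wdfy1, where Pik3cd took the place of Shisa8.

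**Figure D4:**
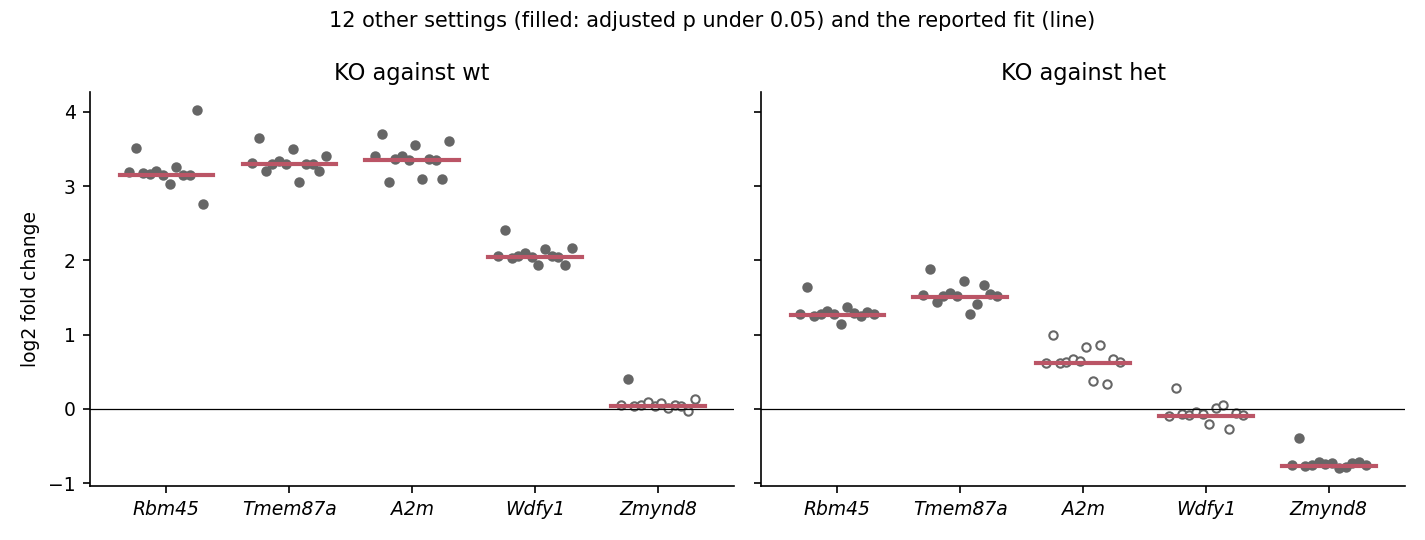
Log2 fold change of each gene in KO against wt and KO against het (vertical axis) in the reported fit (lines) and in 12 other settings (points, filled where the adjusted p was under 0.05). Rbm45, Tmem87a, A2m and Wdfy1 were called against wt in all 12, Zmynd8 in 1 (library sizes alone), and Rbm45 and Tmem87a alone were called higher against het.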

How the data were processed

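RNA from sorted heart endothelial cells was amplified with SMART-Seq v4 and made into Nextera XT libraries, per the labels' protocols. The authors deposited 1 table of expected counts, reads per gene estimated with RSEM, in 6 library columns. Also named are CASAVA, cutadapt and GRCm38, per the submitters' processing notes, and versions are not given in the sources used here. RSEM splits reads that match several genes, and the kit does not mark strand. Symbols and positions came from GENCODE M21 (GRCm38) and matched 97.7% of 41214 identifiers.

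Expected counts were rounded. Totals ranged from 1537908 to 6501798, which limits precision for genes with few counts. edgeR 4.0.16 (R 4.3.3) was run with TMM scaling, filterByExpr (minimum count 10), 1 robust quasi-likelihood fit over the 6 libraries and Benjamini-Hochberg adjustment over 10952 genes. A gene was called at an adjusted p under 0.05. Each SE was taken from the log2 fold change and its F statistic. CPM used TMM-scaled library sizes. The procedure was tested on simulated counts. Intervals are exact, at 95%, and cover counting error only. Ratios of summed counts were added after the values were seen. Alternatives were DESeq2 1.42.0, limma-voom (limma 3.58.1), scaling by library size, no filter, fits of 2 groups, removal of the mitochondrial, Lars2, 7SL and 7SK genes, and leaving out each library.

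The 5 genes, the gene lists and the tests were chosen with earlier results of these data known. Named beside the 5 genes are the nearest tested gene on either side, neighbours called with a fold of at least 2, the 3 listed partners with the smallest adjusted p in KO against wt, and the 2 genes most alike in profile. Genes without an established name were left out, and 1 listed partner is not reported here. Partners and neighbours named otherwise were chosen after their values were seen. Several litters were collected, but nothing says which hearts went into which library, so p-values measure only the spread between these libraries.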

Additional observations from a re-analysis of the deposited data

How the results depend on the processing

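Of the 5 genes, 4 were called higher in KO against wt in 11 of 12 alternatives, and 5 with library size only, where Zmynd8 joined at 0.40. In KO against het the number was 2, Rbm45 and Tmem87a, in all 12. The KO against wt differences in log2 ran from 2.76 to 4.03 for Rbm45, 3.06 to 3.65 for Tmem87a, 3.06 to 3.70 for A2m and 1.94 to 2.41 for Wdfy1. Over all genes, 3509 were called in KO against wt, and 2043 to 3815 with 1 library left out, the lowest without wt replicate 4. In KO against het 3412 were called, and 2435 to 3206 with 1 left out. In het against wt 19 were called, 8 with limma-voom, 150 with no filter and 2 to 76 with 1 library left out, the extremes without wt replicate 4 and het replicate 3. Neighbours of the 5 called in KO against wt numbered 23, 6 within 0.5 Mb (25.0% of 24 genes), 58 within 2 Mb (37.7% of 154), 9 at a fold of at least 2 (chosen after seeing the data) and 15 to 26 with 1 library left out, the lowest without either wt library. Near Dll4 the count was 21, and 10 to 24 with 1 left out, the lowest without wt replicate 4. Genes ordered wt below het below KO numbered 545, 950 with library size only, and 676 to 1279 with 1 library left out, where fewer libraries have to be ordered. The place of het with library size only was 79.8% for Wdfy1, 26.0% for Rbm45 and 20.1% for Tmem87a. With 1 library left out, het against wt ran from 1.48 to 2.72 for Rbm45 and from 0.70 to 0.89 for Zmynd8. Cd109 reversed to 0.0079 with library size only. Called partners of Wdfy1 numbered 4, 2 with DESeq2 and with limma-voom and 2 to 4 with 1 left out. Those of Rbm45 numbered 5, and 9 with library size only, those of Tmem87a 4, and 2 to 4 with 1 left out, and those of A2m 3, 1 with DESeq2 and 1 to 3 with 1 left out. Causes of these shifts were not tested. No paired analysis was possible because het and KO share 1 replicate number and wt shares none. Depth limits A2m most, with 4 counts over both wt libraries.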
